A study of Homo sapiens with 4 samples.

Results

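The genes described here are 10 ligands, binding proteins, inhibitors and target genes of signalling by transforming growth factor beta (TGF-beta), activin and bone morphogenetic protein (BMP), out of 18417 genes with a probe set of their own. They are TGFB1, TGFB2, INHBA, NRROS, FST, MGP, BAMBI, SMAD7, TGFBI and ID1, and TGFBI and ID1 are target genes of the pathway rather than regulators. They were picked by name with their values on these arrays in view, so the difference of each hairpin from the scrambled array is given for them as a description, with no test. RNA from 4 samples of the established medulloblastoma cell line DAOY, of human origin, was read on whole-transcript microarrays. Lentivirus delivered short hairpin RNAs named H2, H3 and H4 against the transcription factor ZFX to 1 sample each (genotype ZFX KD, 3 arrays), and a scrambled hairpin without a target, SCR, to the remaining sample (genotype Ctrl, 1 array). All 4 samples, the control included, were exposed to virus for 16 to 24 hours, rested for 48 hours and kept in puromycin at 2 ug/mL, which kills untransduced cells, for about 48 hours before RNA was taken. No untransduced or unselected cells are among the samples, and the labels name no repeat of a transduction, so each hairpin stands for 1 array and the spread between hairpins holds any effect of a single hairpin.

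TGF-beta, activin and BMP are secreted dimeric ligands that bring together type II and type I receptor kinases at the cell surface. TGF-beta and activin receptors phosphorylate SMAD2 and SMAD3, and BMP receptors phosphorylate SMAD1, SMAD5 and SMAD9, which enter the nucleus with SMAD4 and act on target genes. The pathway is held in check by secreted proteins that trap the ligands, by a pseudoreceptor, and by inhibitory SMADs that the pathway itself induces. BMP signals are known to oppose the proliferation of cerebellar granule neuron progenitors, from which the sonic hedgehog class of medulloblastoma arises.

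Because ZFX is a transcription factor, the stretch just upstream of the transcription start is shown for 3 members, TGFB2, NRROS and BAMBI. TGFB2 and NRROS lay on 1 side of the scrambled array with every hairpin. Judged by the hairpin nearest to the control, they lay farther from it than the other such members. BAMBI is known to be induced by both SMAD branches. Each sequence is the 250 bases before an annotated start in RefSeq (build GRCh38.p14), 5′ to 3′ on the strand of the gene. Capitals mark every match to CAGAC, the short element bound by SMAD3 and SMAD4, and to GGCGCC, a GC-rich SMAD motif, on either strand.
TGFB2, chr1:218345086-218345335, plus strand: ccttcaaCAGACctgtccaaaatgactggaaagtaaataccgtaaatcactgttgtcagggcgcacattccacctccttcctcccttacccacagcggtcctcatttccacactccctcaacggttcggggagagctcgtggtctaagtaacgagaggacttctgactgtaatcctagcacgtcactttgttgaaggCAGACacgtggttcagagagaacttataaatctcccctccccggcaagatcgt
NRROS, chr3:196639444-196639693, plus strand: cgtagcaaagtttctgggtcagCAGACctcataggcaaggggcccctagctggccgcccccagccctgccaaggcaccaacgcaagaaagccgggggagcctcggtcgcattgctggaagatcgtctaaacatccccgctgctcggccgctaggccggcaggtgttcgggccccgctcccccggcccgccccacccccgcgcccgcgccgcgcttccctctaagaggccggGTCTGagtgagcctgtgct
BAMBI, chr10:28677271-28677520, plus strand: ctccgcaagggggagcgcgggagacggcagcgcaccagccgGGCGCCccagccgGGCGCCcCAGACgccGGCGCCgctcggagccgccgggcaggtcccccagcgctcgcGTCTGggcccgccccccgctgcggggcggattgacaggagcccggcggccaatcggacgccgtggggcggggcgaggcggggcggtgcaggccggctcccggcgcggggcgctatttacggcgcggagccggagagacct

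RefSeq windows were matched for 9 of the 10 members, all but MGP. CAGAC or its reverse complement GTCTG occurred 2 times in the window of each printed gene, at 243 and 53 bases before the start in TGFB2, 228 and 19 in NRROS and 189 and 140 in BAMBI. It was also in windows of SMAD7, which has 3, so 4 of the 9 members held it in at least 1 window. Of 34788 such windows of all genes 38.0% hold it, and 8.82% hold it 2 or more times. GGCGCC, which reads the same on both strands, occurred 3 times in BAMBI and 1 time in TGFBI. It is in 16.4% of all windows, and 2 or more times in 3.09%. The SMAD palindrome GTCTAGAC, in 0.178% of windows, and AGGCCT, the core of the motif known for ZFX and in 9.16% of windows, matched in 0 of the 9 members. No match overlapped another motif in the printed windows. A match is only a run of letters in this stretch, and binding was not measured.

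The arrays were compared before the members were read. Between arrays, the correlation of log2 intensities over probe sets (not replicates) was 0.992 to 0.996. H2 lay farthest from the scrambled array: of 13813 genes above an intensity filter, 912 (6.6%) were at least 1.5-fold away with H2, 230 (1.67%) with H3 and 384 (2.78%) with H4. ZFX itself (probe set 8166500) had intensities of 744.9, 749.6 and 995.6 under H2, H3 and H4 and 1429.6 under SCR. Its level was 52.1%, 52.4% and 69.6% of the control. The knockdown at the RNA level was therefore least deep with H4. Of 8 markers of neural progenitors and medulloblastoma, 7 were above the filter and NES was not. On the linear scale NES (108 to 113) and ATOH1 (126 under H2, 107 on the scrambled array) both read near 110.2, the filter. None of 4 endothelial or 3 epithelial markers was above it, and of 4 leukocyte markers measured PTPRC and CD3E were below it while CD14 and CSF1R were above it, with 131 to 136 and 145 to 198. The summed intensity of the leukocyte list ran from 388 to 435 over the 4 arrays.

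All 10 members passed the intensity filter, a mean log2 intensity of at least 6.78 over the 4 arrays. With all 3 hairpins, TGFB2, INHBA and SMAD7 were below the scrambled array (3 of 10, against 30.6% of all genes) and NRROS and FST were above it (2 of 10, against 16.9% of all genes). The other 5 lay on both sides. Together 5 of 10 were on 1 side with every hairpin, near the 47.5% of all genes, so the number of such members is not a result about them. None was at least 1.5-fold lower (0.311% of all genes) or higher (0.0507%) with all 3 hairpins. Under H2, 4 members were at least 1.5-fold away (TGFB2 and BAMBI lower, FST and MGP higher). Under H3 there were 2 (INHBA and BAMBI lower), and under H4 also 2 (TGFB2 lower, MGP higher). Of all genes, 6.6%, 1.67% and 2.78% lay this far from the scrambled array on either side, in the order H2, H3, H4. As the members were picked with these values in view, their single-hairpin counts are a description only and not a result about them. Levels are linear RMA intensities, and differences are log2 of a hairpin array minus log2 of the scrambled array, with the SD over the 3 hairpins. Probe sets differ in how brightly they read, so no level of a gene is set against that of another.

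**Figure D1:**
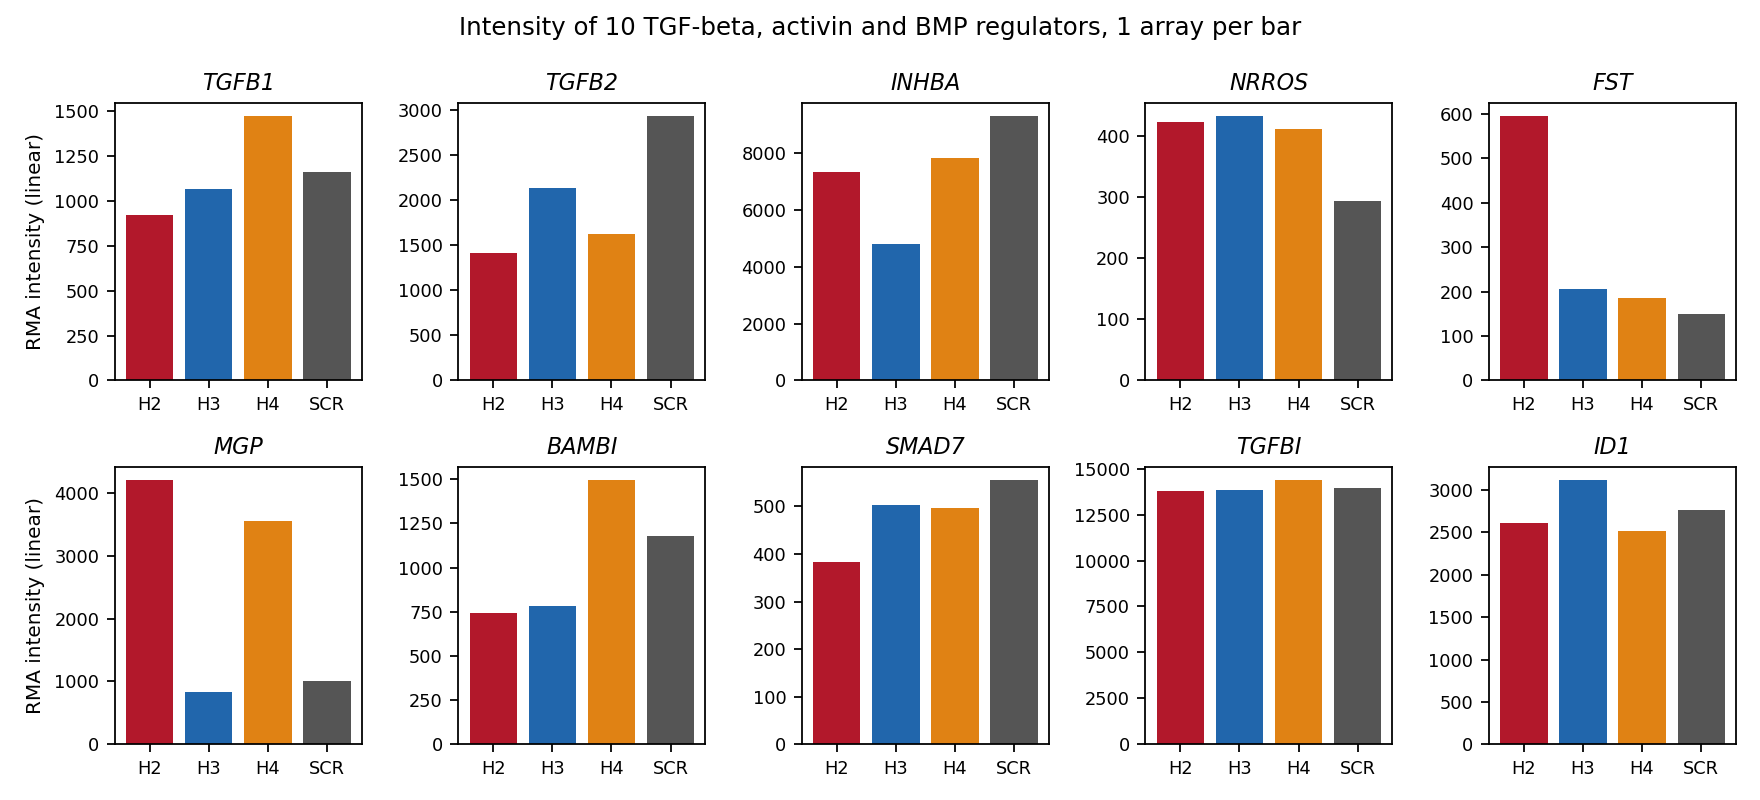
Linear RMA intensity (vertical axis, from 0, a separate scale per gene) of the 10 members on the H2, H3, H4 and scrambled (SCR) arrays, 1 array per bar. TGFB2 and INHBA are highest on the scrambled array, NRROS is lowest there, FST stands out with H2 and MGP with H2 and H4, while TGFBI is level across the 4 arrays.

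Among the 10 members, the ligand genes TGFB2 and INHBA had the lowest mean differences from the scrambled array. TGFB2 (probe set 7909789), the TGF-beta isoform that needs the co-receptor betaglycan for efficient receptor binding, read 2929 on the scrambled array and 1416, 2131 and 1624 under H2, H3 and H4. Each hairpin was thus below the control, at 48.4%, 72.8% and 55.4% of it, and the hairpin nearest to the control was H3. On average TGFB2 differed by -0.79 ± 0.30 on the log2 scale (SD, n = 3 hairpins; the SD leaves out the error of the scrambled array), more than the spread between hairpins, and the mean ranged from -0.95 to -0.65 when 1 hairpin was left out. In such bulk RNA, fewer cells with a transcript and less of it per cell cannot be told apart. TGFB1 (probe set 8037005), the most widely expressed isoform in most tissues, did not follow TGFB2. It read 1162 on the scrambled array, 922 under H2, 1068 under H3 and 1472 under H4, so H2 and H3 were below the control and H4 was above it. Its mean log2 difference of -0.04 ± 0.34 was within the spread. It turned positive, to 0.11, without H2, was 0.0039 without H3 and -0.23 without H4.

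TGFB3, the remaining isoform and not a member, showed the order of TGFB1: 274 on the scrambled array, and 228, 253 and 408 under H2, H3 and H4. With H4, TGFB1 was at 127% and TGFB3 at 149% of the scrambled level while TGFB2 was at 55.4%.

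INHBA (probe set 8139207) encodes the beta A subunit, whose dimer is activin A. Its intensity was 9287 on the scrambled array, 7311 under H2, 4788 under H3 and 7809 under H4. All 3 hairpins were below the control, and H3, at 51.6%, was well below H2 at 78.7% and H4 at 84.1%. Its mean difference on the log2 scale was -0.52 ± 0.38, and without H3 it was -0.30. TGFB2 and INHBA thus differed in which hairpin was nearest the control, H3 for TGFB2 and H4 for INHBA. The other activin and inhibin subunits above the filter, INHBB and INHA, and the related ligand GDF11 lay on both sides of the control, with mean log2 differences of -0.001, 0.03 and -0.14. INHBC, INHBE, NODAL, GDF3 and MSTN were under the filter.

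Of the BMP and GDF ligands 12 of 17 passed the filter, 3 of them lower and 4 higher than the scrambled array with all 3 hairpins, with a median of 0.002. Over all genes 30.6% were lower and 16.9% higher with all 3 hairpins. The counts for each role below stand beside these same shares and are a description only. BMP7 stood at 90.8%, 86.8% and 75.9% of the scrambled level under H2, H3 and H4. BMP4 was at 57.5% with H2 but at 109.6% and 119.1% with H3 and H4. BMP2 differed by 0.20, 0.08 and 0.07 on the log2 scale.

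NRROS (probe set 8084951), also called LRRC33, holds latent TGF-beta at the cell surface and is known mainly from microglia and macrophages. It read 293 on the scrambled array and 423, 432 and 410.4 under H2, H3 and H4. The 3 hairpin arrays lay close together and apart from the control, at 144.2%, 147.5% and 140.1% of it. This gave a mean log2 difference of 0.52 ± 0.04, the smallest spread between hairpins of any member that lay on 1 side with all 3. The SD leaves out the error of the scrambled array, whose 1 reading enters all 3 differences. The mean stayed between 0.50 and 0.56 under every scaling, filter and offset tried and with each hairpin left out. ZFX stood at 52.1%, 52.4% and 69.6% of the control under H2, H3 and H4. The part of knockdown depth in the NRROS readings was not tested. The summed intensity of the 4 leukocyte markers was 394, 388 and 423 under H2, H3 and H4 and 435 under SCR. Within it CSF1R was below the control with all 3 hairpins, and CD14 lay on both sides. PTPRC and CD3E were dim, under the intensity filter. PTPRC was slightly below the control (42.2, 42.4 and 41.9 against 43.0), and CD3E was above it (71.0, 66.9 and 68.4 against 60.7). The part of these 4 markers in the NRROS readings was not tested.

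Of the 12 other genes of latency and activation, 3 were lower and 1 was higher with all 3 hairpins, and their median was -0.17. The higher gene was FURIN, the protease that cleaves the TGF-beta precursor. It read 574 on the scrambled array and 718, 883 and 945 under H2, H3 and H4, for a mean difference of 0.55 ± 0.21. Among the lower genes was ITGB8, an integrin subunit that helps to free latent TGF-beta, at 82.6%, 62.2% and 80.8% of the scrambled level. FBN1, fibrillin 1 of the microfibrils that store latent complexes, was at 43.3% with H2 but at 100.5% and 91.2% with H3 and H4.

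FST (probe set 8105302), follistatin, binds activin almost irreversibly and so neutralises it. Its intensity was 150.0 on the scrambled array, 595 under H2, 206 under H3 and 186 under H4. H2 stood far above the rest, at 3.97-fold over the control, while H3 and H4 were 1.37-fold and 1.24-fold above it. The mean log2 difference of 0.92 ± 0.93 was no larger than its spread, and without H2 it was 0.39. On the linear scale the intensity filter lies at 110.2, so FST was a dim reading on the scrambled array. With H2, where FST was highest, INHBA was at 78.7% of the scrambled level.

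MGP (probe set 7961514), matrix Gla protein, an inhibitor of calcification that also binds BMPs, had the widest range of any member. It read 1011 on the scrambled array, 4198 under H2, 838 under H3 and 3552 under H4. H2 and H4 were 4.15-fold and 3.51-fold above the control while H3 was slightly below it, so the hairpins fell on both sides. The mean log2 difference of 1.20 ± 1.28 was within the spread, and it was 1.93 without H3 and 0.77 without H2. Readings at least 1.5-fold above the control were found at 0.992% of all genes under H2, 0.528% under H3 and 0.608% under H4, and MGP was among them under H2 and H4.

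Among the other secreted antagonists 3 of 10 were lower and 3 higher with all 3 hairpins. TWSG1, which modulates BMP binding to chordin, read 584 on the scrambled array and 327, 465 and 407 under H2, H3 and H4, for a mean difference of -0.56 ± 0.26. GREM1, a BMP antagonist, read 5704 on the scrambled array, 2620.3 under H2, 4139 under H3 and 5829 under H4, so H4 was at the level of the control. LEFTY2, a nodal antagonist, was at 125.1%, 115.5% and 120.5% of the scrambled level. FST and MGP were therefore high with H2 where GREM1 and TWSG1 were lowest.

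**Figure D2:**
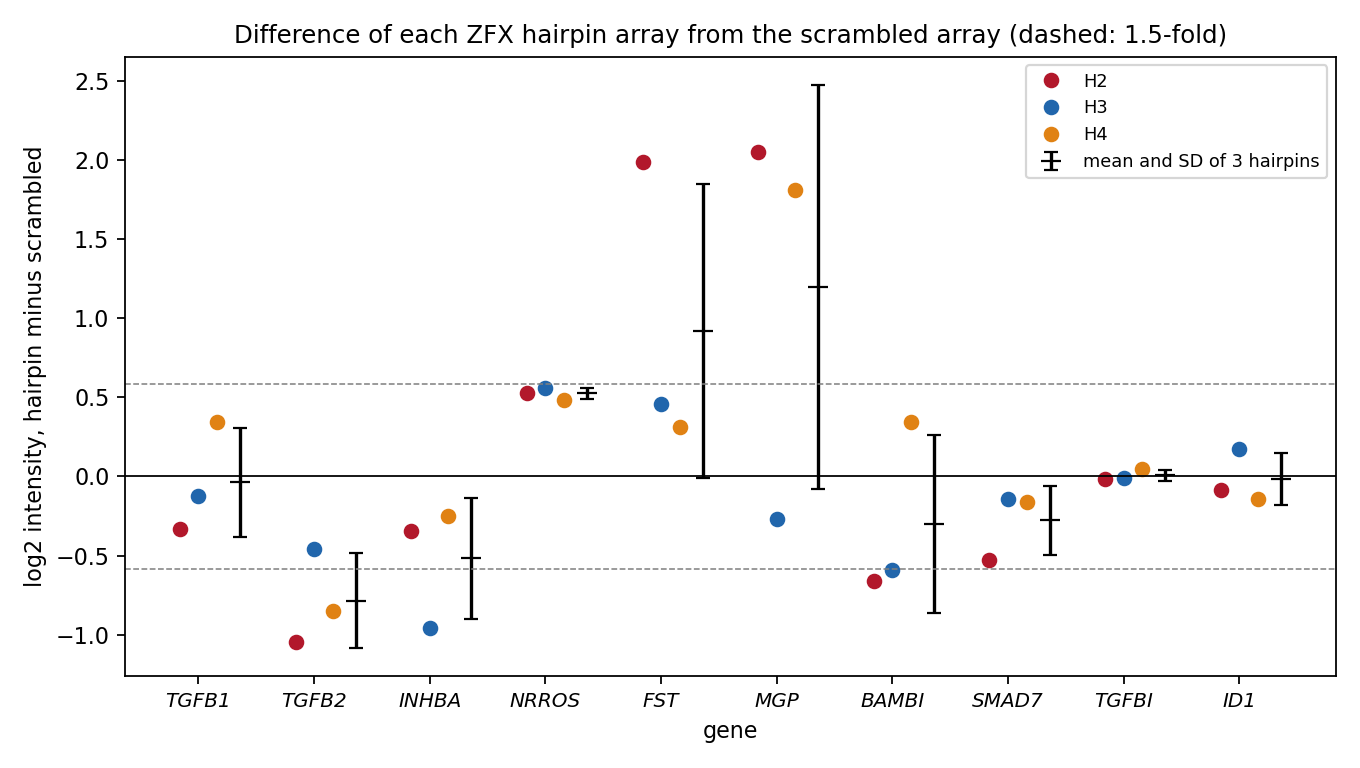
Log2 intensity of each hairpin array minus that of the scrambled array (vertical axis) for the 10 members, with 1 point per hairpin and the mean and SD of the 3 hairpins as a black bar. Dashed lines mark 1.5-fold. NRROS has 3 nearly equal points (0.53, 0.56 and 0.49), FST rests on H2 (1.99), and MGP spans from -0.27 with H3 to 2.05 with H2.

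BAMBI (probe set 7926875) resembles a type I receptor without the kinase domain and blocks receptor pairing. Its intensity was 1176 on the scrambled array, 743 under H2, 781 under H3 and 1495 under H4. H2 and H3, at 63.2% and 66.4%, were below the control and H4, at 127.1%, was above it. The mean log2 difference of -0.30 ± 0.56 was within the spread. It became -0.63 without H4, -0.12 without H2 and -0.16 without H3. Readings at least 1.5-fold below the control were found at 5.61% of all genes under H2, 1.14% under H3 and 2.17% under H4.

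In their means over the 3 hairpins the signalling receptors stood nearer to the control, with medians of -0.02 for type I and -0.06 for type II. With H2 alone these medians were -0.25 and -0.16, beside -0.03 for all genes. Of the 10 type I and type II receptors above the filter, 1 (ACVR2A, named after its values were seen) was higher and none was lower with all 3 hairpins. TGFBR2 differed by -0.26, 0.01 and 0.06 on the log2 scale, in the order H2, H3, H4, and BMPR2 by -0.25, 0.04 and 0.03. TGFBR1, the TGF-beta type I receptor, was at 62.8% with H2 and at 96.1% and 103.5% with H3 and H4. The largest receptor difference was that of betaglycan, TGFBR3, the co-receptor that presents TGFB2. TGFBR3 read 875 on the scrambled array and 373, 680.4 and 625 under H2, H3 and H4, for a mean difference of -0.69 ± 0.47. Betaglycan and TGFB2 were thus each below the control with every hairpin, as were 30.6% of all genes, and lowest with H2. H2 also had the most genes at least 1.5-fold lower (5.61% of all genes, against 1.14% with H3 and 2.17% with H4). A link between these 2 genes was not tested. ENG, another co-receptor, was at 86.2%, 98.2% and 76.6%.

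SMAD7 (probe set 8023220), the inhibitory SMAD that the pathway induces against itself, read 555 on the scrambled array and 384, 502 and 497 under H2, H3 and H4. All 3 hairpins were below the control, H2 at 69.2%, H3 at 90.5% and H4 at 89.5%. Its mean of -0.28 ± 0.22 became -0.15 without H2. The signal-carrying SMADs differed less: SMAD3 was at 82.5%, 94.6% and 92.7%, SMAD5 at 92.1%, 84.0% and 103.2%, and SMAD9 at 108.5%, 123.4% and 112.4%. Of 13 other intracellular inhibitors 5 were lower and 3 higher with all 3 hairpins. TGIF1, a SMAD corepressor, was at 55.3%, 85.5% and 87.2%, and NEDD4L, a ubiquitin ligase for SMADs, at 79.2%, 87.6% and 67.9%. SMURF2, another such ligase, was at 145.9% and 155.0% with H2 and H3 and at 99.5% with H4.

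The target genes among the members hardly differed from the control. TGFBI (probe set 8108217), a secreted matrix protein induced by TGF-beta, read 13917 on the scrambled array and 13764, 13831 and 14369 under H2, H3 and H4. Its hairpin readings were 98.9% to 103.2% of the control, with a mean log2 difference of 0.007 ± 0.034. The brightest probe set on the scrambled array read 27467. ID1 (probe set 8061564), a direct BMP target that blocks basic helix-loop-helix factors, read 2766 on the scrambled array and 2610.1, 3115 and 2510.1 under H2, H3 and H4. H3 was above and H2 and H4 were below the control, with a mean log2 difference of -0.02 ± 0.17. The signs of the TGFBI and ID1 means changed with the scaling of the arrays.

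Other target genes were less even. Of 9 further SMAD1/5 target genes 3 were lower and 1 was higher with all 3 hairpins. ID2, a relative of ID1, read 944 on the scrambled array and 1064, 1139 and 1751 under H2, H3 and H4, so H4 stood out at 1.85-fold. ID3 was at 110.8%, 133.9% and 92.2%, and MSX1 at 94.0%, 88.4% and 79.4%. Among 12 further SMAD2/3 target genes 2 were lower and 1 was higher with all 3. TAGLN, the actin-binding protein transgelin, read 652 on the scrambled array, 256 under H2, 865 under H3 and 312 under H4. TAGLN was low with H2 and H4, the hairpins with high MGP. IL11 was at 46.3% and 65.6% with H2 and H3 and at 129.2% with H4, the order of BAMBI, and BHLHE40 was at 63.8%, 80.3% and 97.3%.

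**Figure D3:**
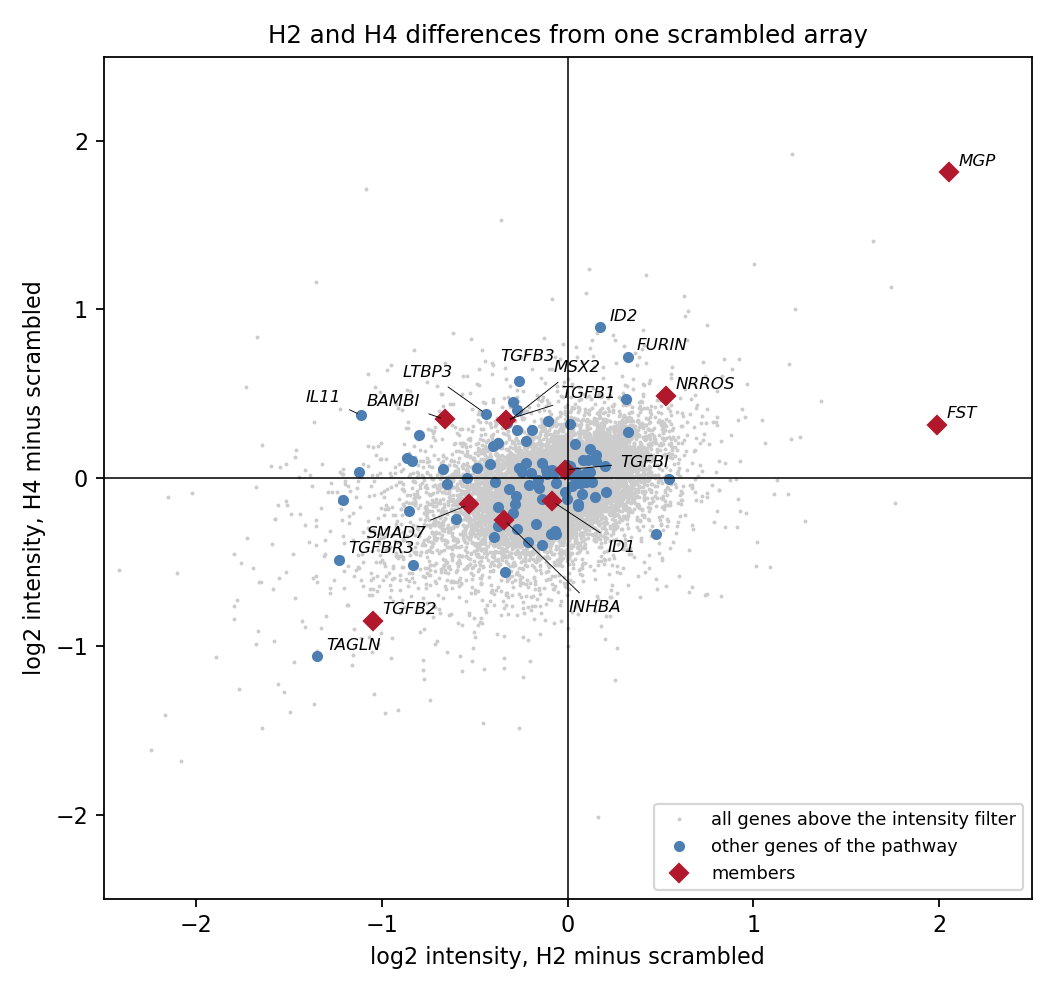
Log2 difference from the scrambled array with H2 (horizontal axis) and H4 (vertical axis) for all genes above the filter (grey), the other pathway genes (blue) and the 10 members (red). The scrambled array enters both axes, so the plotted differences are not independent; MGP lies at the upper right, TGFB2 at the lower left, and TGFB1 and BAMBI at the upper left. The axes end at 2.5, and 1 gene lies outside.

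TGFB1 and BAMBI shared a pattern with a few other genes of the pathway. A count chosen after the values were seen took genes at 80% of the control or less under H2 and at least 25% above it under H4. It held 5 of 102 pathway genes, TGFB1, BAMBI, LTBP3, IL11 and MSX2, against 0.492% of all genes, and the opposite pattern held 1 of 102, RGMB, against 0.268%. As the rule was drawn from these genes, the count is a description only. ZFX was at 52.1% of the scrambled level with H2 and 69.6% with H4, and the part of knockdown depth in this pattern was not tested.

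**Figure D4:**
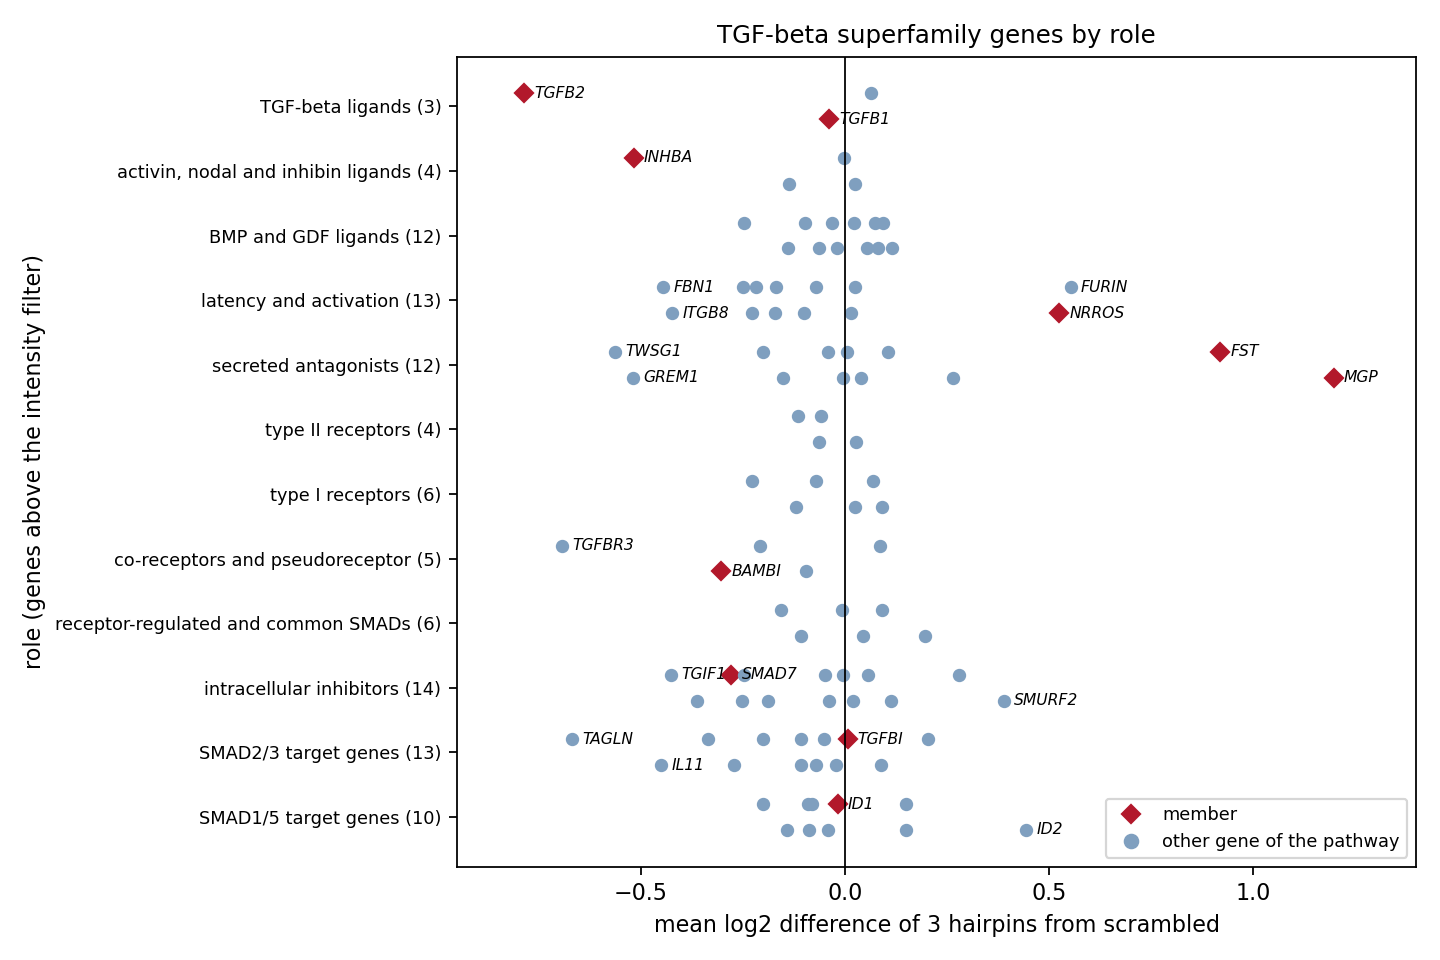
Mean log2 difference of the 3 hairpins from the scrambled array (horizontal axis) for the 102 pathway genes above the intensity filter, by role, with the number of genes in each role in brackets. The 10 members are red diamonds and other genes blue circles. The widest differences are among ligands and secreted antagonists, from TGFB2 at -0.79 to MGP at 1.20, and type I and type II receptors lie close to 0.

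The wider list held 127 genes of the pathway, of which 120 were analysed here and 102 passed the filter. Relative to the scrambled array 25 (24.5%) were lower and 18 (17.6%) higher with all 3 hairpins, against 30.6% and 16.9% of all genes. The list median was -0.05 beside -0.03 for all genes. Centring each array on its median turned the list counts to 17 lower and 24 higher, quantile normalization to 19 and 20, and cyclic loess to 19 and 18, so the balance of directions rests on the scaling. In limma, which compared the 3 hairpin arrays with the scrambled array over all 13813 genes, 0 of the 92 non-members passed at a threshold of 0.05 (lowest adjusted p = 0.9998 in limma), as did 0 genes in all (0% of genes). FURIN alone of the 92 had an unadjusted p under 0.05 in limma (unadjusted p = 0.036; adjusted p = 0.9998), beside 446 of all genes. None of the 102 was 1.5-fold away on the same side with all 3 hairpins. At the milder limit, TGFB2, TWSG1 and TGFBR3 stood at 80% of the control or less with all 3 hairpins (3 of 102, against 1.9% of all genes). NRROS and FURIN stood at least 25% above the control (2 of 102, against 0.369%). The 102 include the members, picked with their values in view, so these counts are a description only. Without the members, 2 of 92 were lower and 1 of 92 was higher at this limit. Without H3, TGFB2 and TAGLN were at least 1.5-fold lower and MGP was 1.5-fold higher. Without H4 BAMBI and IL11 were 1.5-fold lower, and without H2 FURIN was 1.5-fold higher. The share of all genes that meets this limit with a hairpin left out was not counted, so these genes are named as a description only. By single hairpin, 17 of the 102 were at least 1.5-fold away with H2 (6.6% of all genes), 15 of them lower (5.61% of all genes), against 7 with H3 (1.67%) and 5 with H4 (2.78%). Among the 92 non-members these counts were 13 with H2, all of them lower, 5 with H3 and 3 with H4.

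Genes with the profile nearest to 2 members were found by the Euclidean distance of the 3 log2 differences over all genes above the filter. For TGFB2, the member with the lowest mean, these were DENND2A (distance 0.065), ACTN2 (0.10) and ALDH2 (0.12). ALDH2, a mitochondrial aldehyde dehydrogenase, read 2298 on the scrambled array and 1034, 1716 and 1234 under H2, H3 and H4. For MGP, the member with the highest mean, no gene came as close: the nearest were IGFBP5 (1.12), SCG2 (1.21) and COX7B (1.29). IGFBP5, which binds insulin-like growth factors, read 372 on the scrambled array and 857, 511 and 1407 under H2, H3 and H4. With 3 values a gene, such nearness is a description of these arrays.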

How the data were processed

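The authors deposited 1 intensity per probe set and array for 33297 probe sets, which per the submitters' processing notes come from RMA. For the RMA version, the software and the build, the entry is: not given in the sources used here. RMA sets all arrays to 1 distribution, which hides a change of total RNA, and a saturated or background reading cannot be seen, since no detection call was used. RMA gives log2 values, but the deposited intensities are linear, with medians of 226 to 232, so log2 was taken. The platform annotation gives 19460 probe sets exactly 1 symbol, standing for 18417 genes; the brightest probe set was kept for 769 genes with more than 1, and each member has only 1. Genes with a mean log2 intensity under the 25th percentile (6.78) were left out, leaving 13813. Probe sets with several symbols were not used here.

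The 3 knockdown arrays were set against the scrambled array with limma 3.58.1 in R 4.3.3 (lmFit, eBayes with an intensity trend, Benjamini-Hochberg adjustment over 13813 genes). This leaves 2 residual degrees of freedom, assumes that the lone scrambled array varies like the hairpins, and gives p-values that measure only the spread between these arrays. Single hairpins have 1 array a side and no test. In 5 simulations of this comparison over 13813 genes, limma called 164 of the 500 genes given a 2-fold change, 364 of the 500 given a 4-fold change and 15 others. Each gene was drawn independently with its SD over the hairpins, for the control as well. Shifts shared by the genes of an array were left out, so rates on the real arrays may differ. All hairpin differences share the 1 scrambled array. The members, the pathway list and the rule for named genes (in each role up to 3 non-members with the largest mean difference, and the 3 genes nearest to the members with the highest and lowest mean) were chosen with earlier results of these data known. Slide, scan date and batch were not analysed here. The number of arrays limits the precision. Alternatives were 3 scalings, an offset of 16 before log2, 2 filters, the mean of all probe sets of a gene, no intensity trend, a milder fold limit (25% above the control or 80% of it) and leaving out each hairpin. Promoter windows are from RefSeq, GRCh38.p14. Python 3.11.15, pandas 2.3.3 and matplotlib 3.10.9 made the tables and figures.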

Additional observations from a re-analysis of the deposited data

How the results depend on the processing

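Of the 10 members, 7 kept the sign of their mean log2 difference under every alternative tried; TGFB1, TGFBI and ID1, whose means lie within 0.04 of 0, did not. The number of members on 1 side of the scrambled array with all 3 hairpins was 5. It was 6 after centring each array on its median, when TGFBI joined, and 4 under the 50th percentile filter, which leaves out FST. When a hairpin was left out, 5 to 8 members were on 1 side with both remaining hairpins (8 without H4). Without H4 the shares of all genes rose as well, to 39.4% lower and 27.9% higher, from 30.6% and 16.9%. The count without H4 is therefore not a result about the members. The mean for NRROS went from 0.52 to 0.56 after quantile normalization, a shift just past its SD of 0.04. Pathway genes at least 1.5-fold lower with all 3 hairpins numbered 0, and 0 to 2 when a hairpin was left out. Those 1.5-fold higher numbered 0, and 0 to 1. Leaving out a hairpin eases the limit for every gene, and the share of all genes was not counted there. At the limit of 80% of the control or 25% above it there were 3 lower and 2 higher. In limma 0 genes passed under any alternative, with or without an intensity trend, and the smallest adjusted p ran from 0.833 with no filter to 0.99999 after quantile normalization. After centring of each array on its median, the all-gene median went from -0.03 to -0.003, and the shares lower and higher with all 3 hairpins went from 30.6% and 16.9% to 23.3% and 23.6%. The cause of these shifts was not tested. No paired analysis was possible because the control is 1 array and the labels carry no replicate numbers. Dim readings limit FST on the scrambled array.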

Other observations

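BMP5, a BMP ligand under the intensity filter, read 125 with H2, 61.0 with H3, 68.1 with H4 and 57.5 on the scrambled array, so H2 was 2.18-fold above the control on a dim probe set. ACTA2, smooth muscle actin and a SMAD2/3 target gene, read 275 under H2, 1280.2 under H3, 543 under H4 and 499.8 on the scrambled array. H3 was the high array for ACTA2, as it was for TAGLN among the hairpins. Both genes were singled out after their values were seen.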
